A study of Mus musculus with 31 samples.

Results

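The genes described are 46 protein-coding genes of mouse chromosome 17 whose read bases were counted mostly to the maternal JF1 allele in cultured cells of the JB6 cross. They were chosen by 3 allelic shares, where a share is maternal read bases divided by maternal plus paternal read bases, and a read base is 1 sequenced base at a difference between the strains. A member had at least 100 read bases in each of 3 pools, a maternal share above 60% over the 6 JB6 culture libraries, and a share of 40% to 60% over both the 6 BJ1 culture libraries and the 6 JB6 cortex libraries. The rule took 46 of the 464 chromosome 17 genes that met the floor, out of 816 features of that chromosome and 17484 in the series. Because these shares chose the members, they are given as a description, and nothing is read from a test on them. The same rule took 9.91% of the genes that met the floor on chromosome 17, between 0.589% and 4.38% on the other autosomes, and 16 of 365 genes on chromosome 13, where the share was 4.38%.

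RNA was read by allele in F1 hybrids of the strains C57BL/6J (B6) and JF1. JB6 hybrids had a JF1 mother and a B6 father, and BJ1 hybrids had a B6 mother and a JF1 father. Culture libraries were made from hybrid embryonic stem cells (ESCs) and from the same lines after 12 and 21 days of differentiation toward cortex, with 2 libraries per stage and cross, and with the Hedgehog pathway inhibitor cyclopamine at 1 µM on days 2 to 10. Cortex libraries came from E13.5 embryos (3 JB6 and 3 BJ1) and from P0 newborns (3 JB6 and 4 BJ1). All culture libraries were labelled male and 11 of the 13 cortex libraries female. The B6 parent of the cultured lines carried an Oct4-GFP transgene, and the authors' deposited notes place that transgene on a mixed CBA and B6 background, whereas the cortex came from pure strains. In culture, the cross, its cell line and that parent cannot be told apart, and the part of the mixed background in the values below was not tested. Where the B6 parent carries the base that JF1 has, reads of its chromosome are counted as JF1, and a share near 100% can then be read from a gene that uses both chromosomes. The authors' deposited notes say that these cases could not be told apart, and describe a filter against them. Of 37985 covered differences at which JF1 has the base of CBA or DBA, 12720 had under 10% B6 and over 40% JF1 in a pool of the 12 culture libraries of both crosses, and those of them with more than 50 reads were removed. The filter pooled both crosses, so a position read as JF1 in JB6 alone could keep 10% B6 or more and stay. A JB6 culture share below is thus the share of read bases with the JF1 letter after that filter, and any such position that remains would raise it.

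Depth was 5192382 to 8618253 read bases per library, with 50.6% to 52.1% of the autosomal ones on the B6 allele. The JB6 culture libraries were the lowest in this B6 share, at 50.6% to 51.4%, against 51.6% to 52.1% in all other libraries. Markers of pluripotent cells summed to 2270 to 4602 CPM (read bases scaled to library size) in JB6 ESCs and to 3835 to 4590 CPM in BJ1 ESCs. Markers of dorsal telencephalon, 7 of 8 of which were in the tables, summed to 5.88 to 18.0 CPM over the day 12 and day 21 libraries of both crosses, against 644 to 931 CPM in E13.5 cortex, so these markers do not bear out the label of cortex for the cultures. Fibroblast and mesenchymal markers summed to 7132 to 10572 CPM at day 21 in JB6 and to 10221 to 11237 CPM at day 21 in BJ1. Markers of neurons, 4 of 5 of which were in the tables, summed to 443 to 535 CPM at day 21 in JB6 and to 358 to 548 CPM at day 21 in BJ1. At day 12 these neuron markers summed to 86.9 to 117 CPM in JB6 and to 245 to 343 CPM in BJ1. In E13.5 cortex the fibroblast and mesenchymal markers summed to 394 to 805 CPM in JB6 and to 8.70 to 191 CPM in BJ1. In P0 cortex they summed to 312 to 336 CPM in JB6 and to 186 to 316 CPM in BJ1. In bulk RNA, fewer cells of a type and less RNA per cell cannot be told apart. The part of cell makeup in the allelic values and in the level differences between the crosses was not tested.

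In an F1 hybrid, strain differences within a transcript tell which parental chromosome it was read from. A gene under genomic imprinting follows the parent, and is then maternal in both reciprocal crosses or paternal in both, while a gene whose strain alleles differ in activity follows the strain and changes parental side between the crosses. The H-2 region of chromosome 17 is the mouse major histocompatibility complex, a gene-dense region that holds antigen-presenting molecules beside many genes for chromatin, RNA handling, protein folding and signalling.

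In the gene order of the GRCm38 assembly, over 463 of the 464 genes, the members were Synj2, Prr18 and Wtap, then Notch3, Zfp871, Adamts10, Daxx, Zbtb22, Tapbp, H2-Ke2, Wdr46, Rps18, Vps52, Ring1, Slc39a7, Rxrb, Col11a2, Brd2, Notch4, Pbx2, Agpat1, Stk19, Clic1, Ddah2, Abhd16a, Gpank1, D17H6S53E, Bag6, Prrc2a, Nfkbil1, Atp6v1g2, Ddx39b, Cchcr1, Vars2, Gtf2h4, Ddr1, Flot1, Tubb5, 2310061I04Rik, Rpp21, Trim26 and Zfp57, and last Rftn1, Efhb, Socs5 and Ttc7. From Notch3 to Zfp57, 39 of 98 consecutive genes were members, and this stretch includes H-2 genes. Only 7 of the other 365 ordered genes were. The stretch was drawn after the values were seen, as the longest chain of members with at most 20 ordered genes from 1 member to the next.

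Promoter sequence is shown for 3 genes, the 2 members with the most read bases and the gene that follows Tubb5 in this order but had no skew. Capitals mark 4 motifs searched on both strands. They are the TATA box motif TATAAA, the box known as CCAAT, the GC box motif GGGCGG, and CCGGAAG, a motif of the ETS type. No motif contains another. The sequences run 5′ to 3′ on the gene's own strand, from 250 bases before to 50 after the start in RefSeq (GRCm38.p6). Tubb5 lies on the minus strand at chr17:35838252-35838551, Mdc1 on the plus strand at chr17:35841248-35841547 and Rps18 on the minus strand at chr17:33955616-33955915.
Tubb5: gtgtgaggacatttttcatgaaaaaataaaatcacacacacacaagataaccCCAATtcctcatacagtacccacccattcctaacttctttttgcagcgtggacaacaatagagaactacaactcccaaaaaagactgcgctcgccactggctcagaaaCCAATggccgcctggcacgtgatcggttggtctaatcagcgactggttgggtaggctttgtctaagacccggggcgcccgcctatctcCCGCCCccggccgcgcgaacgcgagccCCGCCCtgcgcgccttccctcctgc
Mdc1: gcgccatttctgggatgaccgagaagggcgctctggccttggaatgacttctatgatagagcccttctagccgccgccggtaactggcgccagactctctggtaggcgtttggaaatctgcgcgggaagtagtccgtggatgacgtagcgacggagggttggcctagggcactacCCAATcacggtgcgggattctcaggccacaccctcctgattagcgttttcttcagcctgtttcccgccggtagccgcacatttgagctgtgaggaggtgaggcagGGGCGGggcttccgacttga
Rps18: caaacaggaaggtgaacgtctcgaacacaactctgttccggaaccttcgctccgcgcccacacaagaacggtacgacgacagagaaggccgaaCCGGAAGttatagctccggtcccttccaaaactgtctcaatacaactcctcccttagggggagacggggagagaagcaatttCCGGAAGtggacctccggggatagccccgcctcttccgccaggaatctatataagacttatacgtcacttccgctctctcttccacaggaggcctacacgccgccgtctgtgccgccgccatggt

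Tubb5 had 2 matches each of CCAAT and GGGCGG, Mdc1 1 of each, and Rps18 2 of CCGGAAG. Of the members, 39 matched a RefSeq promoter. GGGCGG was in 66.7% of these and 35.9% of all 27025 promoters, CCGGAAG in 23.1% and 9.12%, CCAAT in 30.8% and 37.9%, and TATAAA in 2.56% and 14.2%. The median number of CG dinucleotides was 24 in members and 7 in all promoters. All promoters include genes that did not meet the floor of read bases, and no set matched to that floor was compared. Nothing about the members is therefore read from these differences. A match is a description of the letters, not a binding site.

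Across the 46 members the median maternal share was 71.3% in the JB6 culture pool (60.1% to 100%), 49.8% in the BJ1 culture pool (40.1% to 57.2%) and 49.7% in the JB6 cortex pool (42.5% to 59.2%). In the BJ1 cortex pool, which the rule did not use, it was 48.3% (36.0% to 59.1%), with 41 members between 40% and 60% and 5 below 40%. The skew was graded. In the JB6 culture pool 9 members stood above 99%, 8 between 80% and 99%, 12 between 65% and 80%, and 17 between 60% and 65%. The lowest JB6 culture library lay above every BJ1 culture library for 35 members, and above every JB6 cortex library for 31. Among autosomal genes that met the floor, 9.89% and 3.35% did so, but the rule used both contrasts and nothing is read from these counts.

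**Figure D1:**
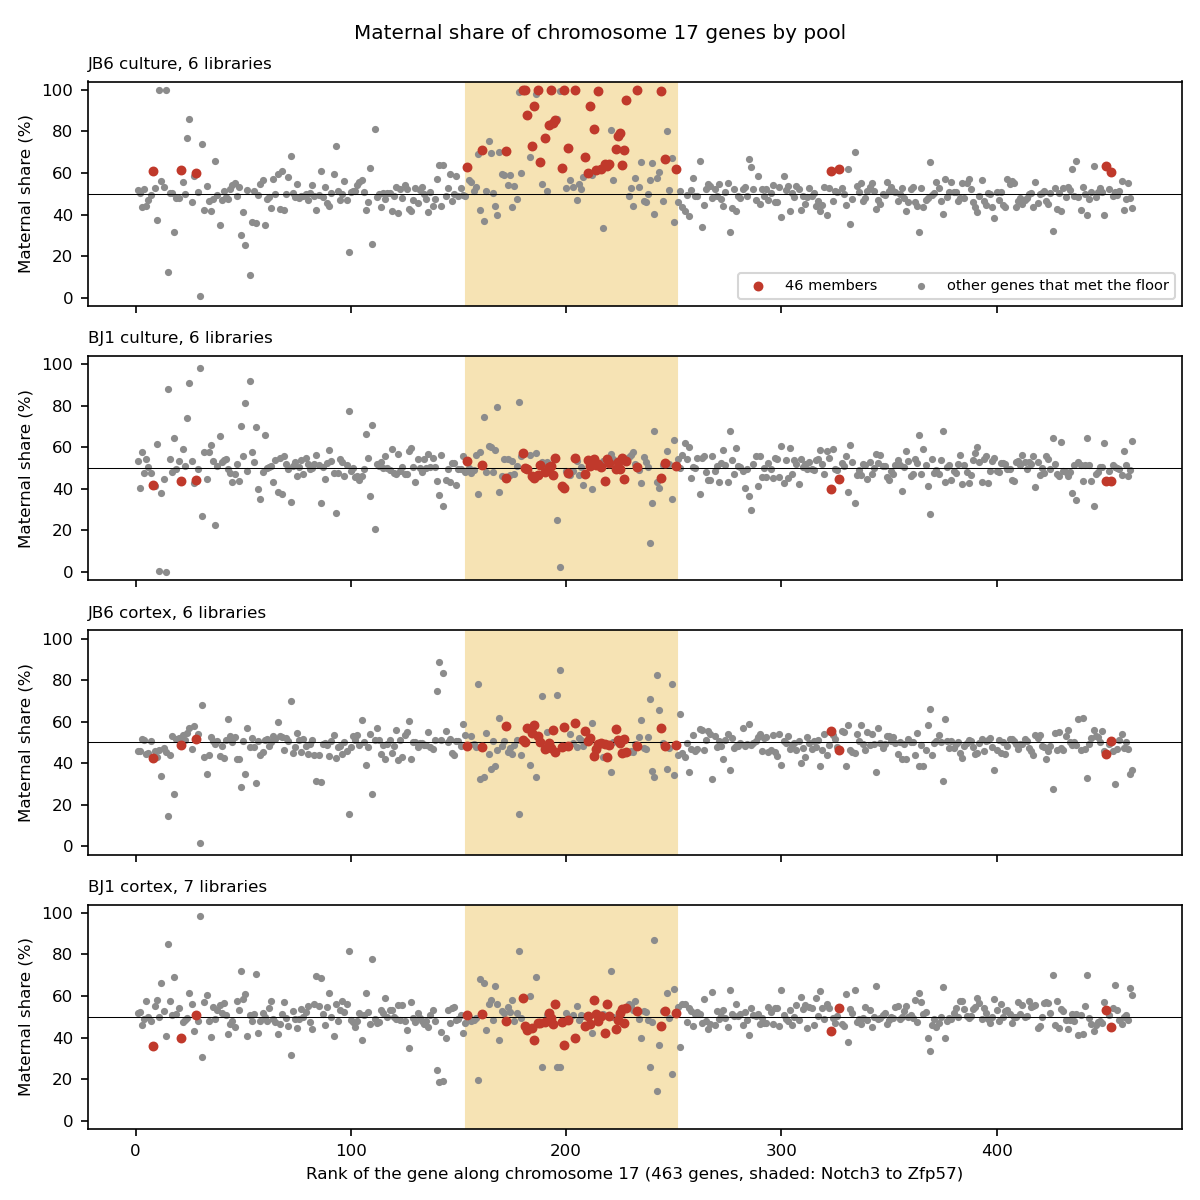
Maternal share (%, y axis) of 463 chromosome 17 genes against their rank along the chromosome (x axis), in 4 pools of 6 or 7 libraries, with the 46 members in red and other genes that met the floor in grey. Members above 60% gather in the shaded stretch from Notch3 to Zfp57 in JB6 culture, while the same genes lie near 50% in BJ1 culture and in the cortex of both crosses.

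The read bases of the 2 most-read members were counted almost wholly as JF1 in JB6 culture. Tubb5 encodes a beta-tubulin, a building block of microtubules. Its maternal share was 93.5% and 93.3% in JB6 ESCs, 95.7% and 96.7% at day 12, and 96.4% and 96.2% at day 21. The BJ1 libraries gave 54.0% and 55.2% in ESCs, 51.4% and 52.0% at day 12, and 54.7% and 52.7% at day 21. In JB6 cortex Tubb5 was 46.3%, 45.9% and 45.6% maternal at E13.5 and 46.6%, 44.5% and 44.9% at P0. The B6 allele was thus the slightly higher one in cortex and in BJ1 culture, and nearly all read bases were counted as JF1 in every JB6 culture library.

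Rps18 encodes a protein of the small ribosomal subunit. It was 99.8% to 100% maternal in the 6 JB6 culture libraries (median 99.9%) and 45.4% to 49.1% in the 6 BJ1 culture libraries. In JB6 cortex it was 53.9%, 53.2% and 53.6% at E13.5 and 52.4%, 53.1% and 53.0% at P0. The JB6 culture values did not overlap with those of any other group. Rps18 has 1 covered strain difference, so all of its 46386 read bases in JB6 culture come from 1 position, while the 58457 of Tubb5 come from 10.

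Of 18 genes of a list for chromatin and transcription that met the floor, 8 were members, namely Brd2, Daxx, Gtf2h4, Notch3, Notch4, Ring1, Rxrb and Zfp57. On the chromosome 46 of 464 genes were members, and in the stretch 39 of 98, and nothing is read from the count of this list. Daxx, a histone chaperone, and Rxrb, a nuclear receptor of the retinoid X family, stood near 100%, as did 2 members outside the list, Zbtb22, a zinc finger protein, and Pbx2, a homeobox factor. All 4 stood at or above 99.2% in each JB6 culture library. B6 read bases in the JB6 culture pool numbered 0 of 146 for Daxx, which allows a share of up to 2.05%, 0 of 560 for Pbx2, which allows 0.536%, 1 of 866 for Zbtb22 and 1 of 856 for Rxrb. Brd2, a bromodomain protein that binds acetylated histones, ran from 83.6% to 86.6% (median 85.7%). Gtf2h4, a subunit of the general factor TFIIH, ran from 75.6% to 85.0%, and Ring1, a Polycomb ubiquitin ligase subunit, from 73.0% to 84.9%.

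Zfp57 protects methylation imprints from loss in the early embryo and ESCs, and had a weak skew. It was 60.3% to 65.4% maternal in the JB6 culture libraries (median 62.2%), against 47.2% to 55.1% in BJ1 culture. In JB6 cortex its values were 49.0%, 46.0% and 48.2% at E13.5 and 50.0%, 48.0% and 48.9% at P0. All JB6 culture values lay above all others.

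Wdr46, a nucleolar protein of ribosome assembly, was 91.1% to 93.4% maternal in the JB6 culture libraries (median 92.1%), against 39.6% to 48.6% in BJ1 culture. In JB6 cortex it was 53.2%, 56.0% and 57.8% at E13.5 and higher at P0, up to 63.8%. Ddx39b, an RNA helicase of splicing and mRNA export, held 63.2% to 66.4% in JB6 culture (median 64.2%) and 49.4% to 56.2% in BJ1 culture. In JB6 cortex Ddx39b stayed within 45.8% and 50.3%.

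Tapbp encodes tapasin, which loads peptides onto class I molecules, and ran from 79.5% to 93.6% in JB6 culture. H2-Ke2, a prefoldin subunit that is named after the region, ran from 71.7% to 74.7% in JB6 culture (median 72.7%), against 43.5% to 49.8% in BJ1 culture. Of 10 features with an H2- symbol that met the floor, 6 exceeded 60% in JB6 culture (median over the 10, 62.6%), and H2-Ke2 was the 1 that met the whole rule. H2-Aa, a class II chain, was 99.6% maternal in JB6 culture but 2.27% in BJ1 culture and 85.1% in JB6 cortex, so that it followed the JF1 strain and missed the rule. H2-D1, a class I heavy chain, was 80.7% in JB6 culture, 56.6% in BJ1 culture and 35.8% in JB6 cortex. Reads of near-identical class I genes may be shared between them, so these values are uncertain.

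Clic1, a chloride intracellular channel protein, ran from 65.6% to 70.7% in JB6 culture and from 43.9% to 48.7% in BJ1 culture. In JB6 cortex, Clic1 reached 66.2% in 1 P0 library with 142 read bases. Ddr1, a collagen receptor kinase, ran from 61.6% to 73.1% in JB6 culture and from 50.3% to 59.5% in BJ1 culture. Notch3, a receptor of the Notch pathway, was 42.9% in JB6 ESC replicate 1 and 63.6% in replicate 2, and 62.7% to 65.7% at days 12 and 21. The first ESC library of Notch3 lay below all 6 BJ1 culture libraries, which ran from 51.1% to 57.3%.

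The other 3 of the 12 most-read members had JB6 culture shares between 59.0% and 70.5%. Vps52, a subunit of an endosome tethering complex, ran from 60.7% to 70.5% in JB6 culture and from 47.5% to 53.9% in BJ1 culture. Trim26, a ubiquitin ligase of the tripartite motif family, ran from 64.3% to 69.9% in JB6 culture and from 45.8% to 58.6% in BJ1 culture. Ddah2, related to an enzyme that breaks down methylated arginine, ran from 59.0% to 62.8% in JB6 culture and from 51.3% to 56.0% in BJ1 culture. Ddah2 was the member nearest the limit, at 60.1% in the pool, followed by Wtap at 60.2% and Ttc7 at 60.6%. Just outside were BC051226 at 60%, which is not above the limit, Luc7l at 59.6% and Wdr4 at 59.5%.

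**Figure D2:**
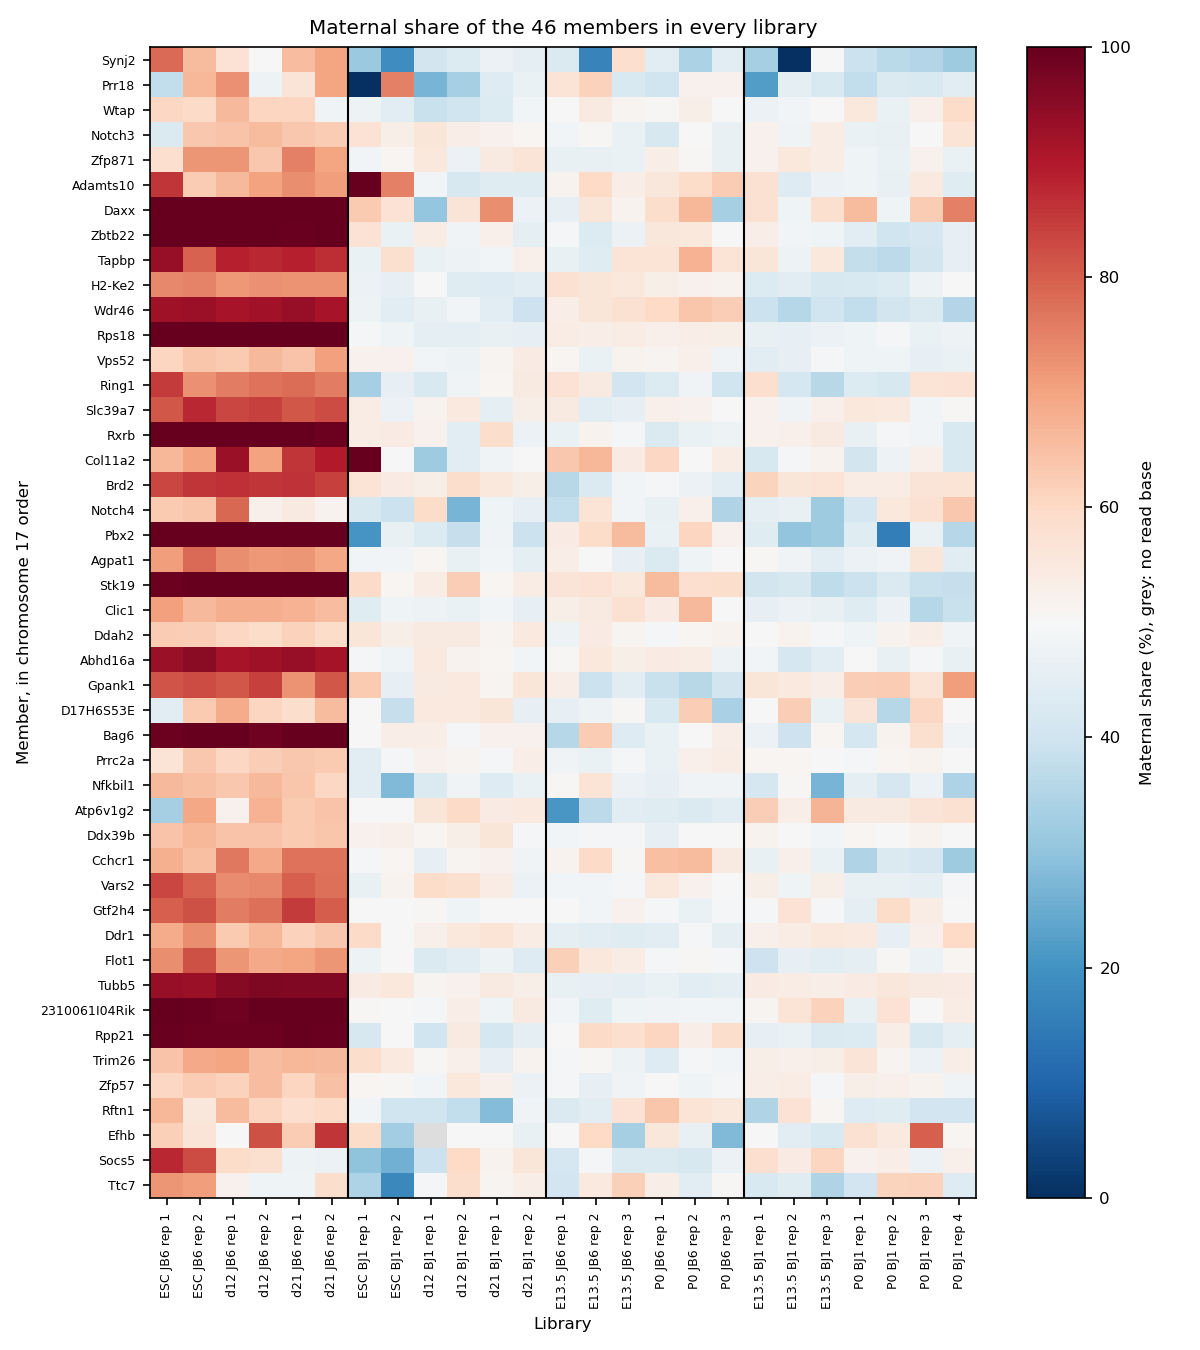
Maternal share (colour, %) of the 46 members (rows, in chromosome order) in 25 libraries (columns), in blocks of JB6 culture, BJ1 culture, JB6 cortex and BJ1 cortex. Rows from Daxx to Rpp21 hold the darkest red in the JB6 culture block, where 9 members stand above 99%, and the other 3 blocks are mostly pale, with single dark cells such as Adamts10 and Col11a2 at 100% in a BJ1 culture library.

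The SD between libraries of a member's share had a median of 3.16 points in JB6 culture, 3.88 in BJ1 culture, 3.98 in JB6 cortex and 4.42 in BJ1 cortex. The largest SD in JB6 culture was 17.4 points, for Socs5. The 95% Wilson interval of a library share was at most 7.24 points to either side for the 12 most-read members in JB6 culture, at most 10.5 points for them in any library, and up to 39.7 points over all members and libraries. These intervals treat each read base as independent and do not cover the spread between libraries. Because 1 read can add several read bases, they can be too narrow even for counting error.

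The 7 members outside the stretch differed from the 39 inside it. In the JB6 culture pool they lay between 60.2% and 63.3% (median 61.2%), against 60.1% to 100% inside (median 76.9%). In the BJ1 culture pool they lay between 40.1% and 44.9% (median 43.7%), against 40.5% to 57.2% inside (median 50.7%). The JF1 allele was thus the higher one in both crosses for all 7. Socs5, an inhibitor of cytokine signalling, was 87.8% and 82.6% maternal in JB6 ESCs, against 29.9% and 26.0% in BJ1 ESCs. At day 21 it was 47.3% and 47.6% in JB6, against 51.8% and 56.2% in BJ1, so the JF1 excess of Socs5 was present in ESCs of both crosses and not at day 21. Ttc7 was 71.9% and 70.7% in JB6 ESCs, against 34.4% and 17.6% in BJ1 ESCs. Synj2, a phosphoinositide phosphatase and the first member along the chromosome, was 49.6% to 78.3% in JB6 culture, against 18.8% to 47.0% in BJ1 culture.

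Within the stretch, genes without skew lay between skewed ones, and some members were adjacent, such as Slc39a7, Rxrb, Col11a2 and Brd2. Of its 59 genes that were not members, 15 also exceeded 60% in JB6 culture but lay outside 40% to 60% in BJ1 culture or JB6 cortex, 41 lay between 40% and 60%, and 3 lay below 40%. Mdc1, a mediator of the DNA damage response next to Tubb5 in the order, was 49.0% maternal in JB6 culture with 23 covered differences and 3472 read bases. Gnl1 stood at 49.8%, and Rnf5, next to the fully skewed Pbx2, at 52.8%. Kifc1, a motor protein, was 98.8% in JB6 culture, 81.8% in BJ1 culture and 15.5% in JB6 cortex. B3galt4, a glycosyltransferase next to Rps18, was 98.1% in JB6 culture and 33.3% in JB6 cortex.

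JB6 culture exceeded JB6 cortex by more than 10 points in 51 of the 98 genes of the stretch and in 27 of the 365 ordered genes outside it. The opposite, a culture share more than 10 points below cortex, held for 4 and 18 genes. Between BJ1 culture and BJ1 cortex, 6 genes of the stretch were more than 10 points higher in culture and 7 were lower, against 19 and 28 outside. The median of culture minus cortex was 11.8 points in JB6 and -0.0497 points in BJ1 inside the stretch, against 0.745 in JB6 and -0.193 in BJ1 outside. Of the 51 genes, 38 were members, which were chosen on these 2 shares. Among the 59 other genes of the stretch, 13 were more than 10 points higher in JB6 culture and 4 were lower, and the median was 3.84 points.

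The members' shares above 99% came from genes with few covered strain differences. The 9 members above 99% had 1 to 6 covered differences (median 2), and 4 of them, Daxx, Rps18, Pbx2 and Bag6, had 1. The 37 other members had 3 to 43 (median 9), and none had 1. Among these, Tubb5 was 95.3% maternal in the JB6 culture pool over 10 differences, Wdr46 92.3% over 14 and Col11a2 84.2% over 25. Clic1, by contrast, was 67.6% over 3. The chromosome 17 genes that met the floor and were not members had 1 to 103 (median 10), and 11 of them had 1. Shares for each strain difference are not in the tables used here. A gene with a share of 60% to 90% over several differences may therefore hold positions of unlike share, and this was not tested.

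**Figure D3:**
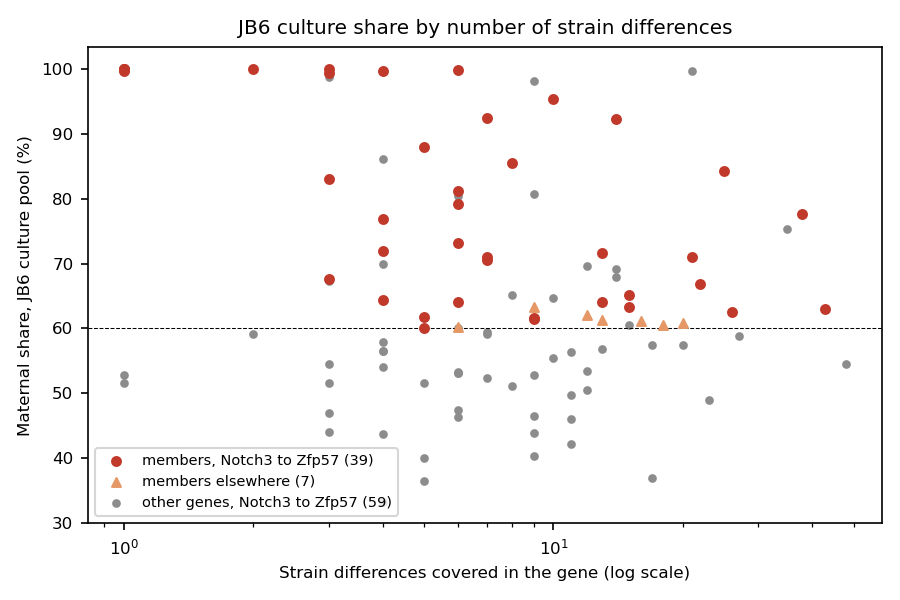
Maternal share in the JB6 culture pool (%, y axis) against the number of strain differences covered in the gene (log x axis), for 39 members of the stretch (red), 7 members elsewhere (orange) and 59 other genes of the stretch (grey), with the limit of 60% dashed. The 9 members above 99% have at most 6 covered differences, while members between 60% and 65% reach 43.

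Allele levels, in CPM, were set side by side between the crosses in culture. For the 46 members the JF1 allele was higher in JB6 than in BJ1 culture in 43, with a median log2 ratio of 0.47, and the B6 allele was lower in 44, with a median of -0.87. Over 2 genes without a B6 read base in JB6 culture this ratio was taken at the floor of 3 counts. With both alleles summed, the median was -0.08. For the other chromosome 17 genes the medians were -0.02 for the JF1 allele, -0.04 for the B6 allele and -0.04 for both. In cortex the medians of the members were -0.08, -0.06 and -0.07. The rule used the share of the alleles, so the gap between the 2 allele medians in culture follows from it. The level of each allele was not in the rule except through this share and the floor, and is given as a description.

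Tubb5 had a JF1 allele level of 1531 ± 602 CPM in JB6 culture and 788 ± 210 CPM in BJ1 culture (SD, n = 6 each). Its B6 allele level was 80.9 ± 55.5 CPM in JB6 culture and 898 ± 229 CPM in BJ1 culture. Summed over alleles, Tubb5 stood at 1612 ± 653 CPM in JB6 culture and 1686 ± 435 CPM in BJ1 culture. Rps18 had a JF1 allele level of 1195 ± 586 CPM in JB6 culture and 573 ± 202 CPM in BJ1 culture, and a B6 allele level of 1.52 ± 1.09 CPM in JB6 culture and 499 ± 159 CPM in BJ1 culture. Its sum was 1197 ± 587 CPM in JB6 culture and 1072 ± 360 CPM in BJ1 culture. The B6 level of each was far lower in JB6 than in BJ1 culture, while the sums overlapped over the pooled stages. The SDs include the change between stages. At day 12 alone the Tubb5 sums were 1490.5 and 1677.3 CPM in JB6 and 1988.7 and 2020.6 CPM in BJ1. They overlapped in ESCs and at day 21.

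**Figure D4:**
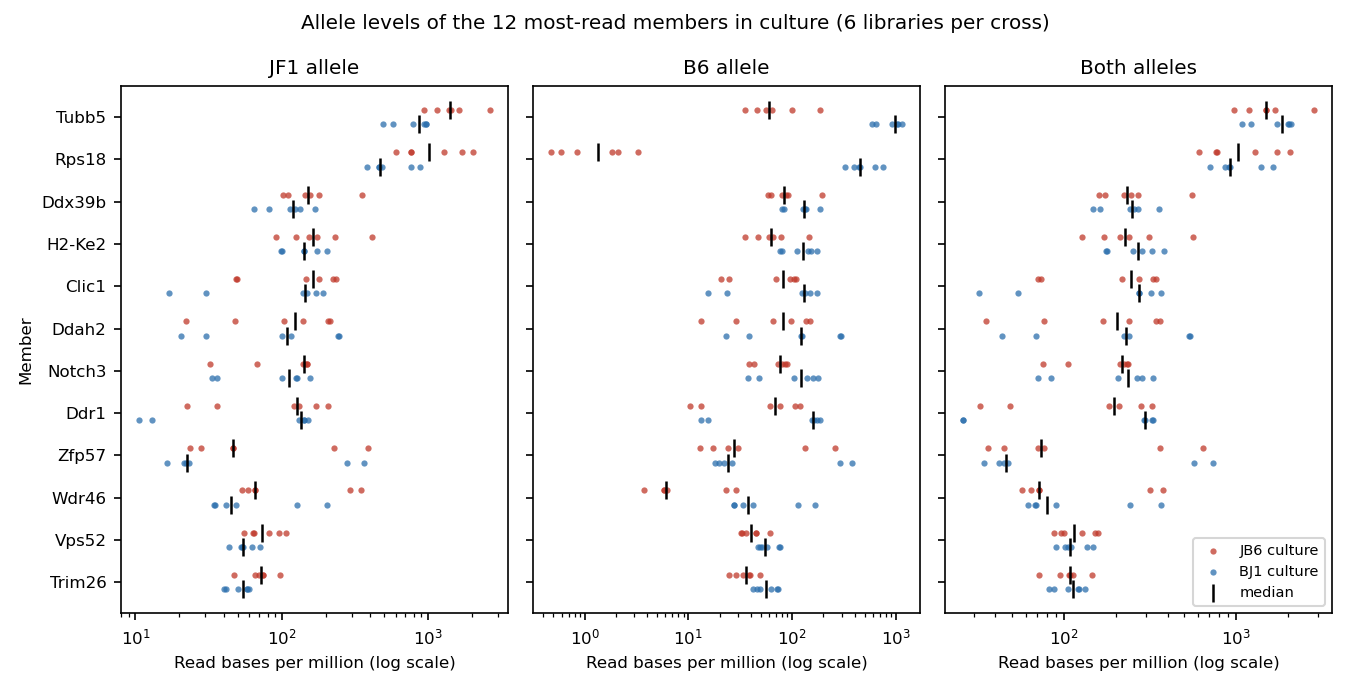
Level of the JF1 allele, the B6 allele and both alleles summed (CPM, log x axes) for the 12 most-read members (rows), with 1 point per library, JB6 culture in red, BJ1 culture in blue and black ticks at medians. The B6 levels of Tubb5, Rps18 and Wdr46 are far lower in JB6, while the summed levels overlap over the pooled stages.

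The total level in culture was compared between the crosses as a mean over ESCs, day 12 and day 21. No member differed in this mean by edgeR's quasi-likelihood test at an adjusted p of 0.05. In all, 7 of 11004 genes passed (0.0636%), and at an unadjusted p of 0.05 the counts were 3 members and 926 genes. DESeq2 called 57 genes and no member. The members' log2 fold of JB6 over BJ1 had a median of -0.02, against 0.02 over all genes, and ran from -0.50 to 0.57, with a smallest adjusted p of 0.563 by edgeR. The 95% interval of the fold lay above -1, a fall to 50%, for 45 members, and below 1, a fold of 2, for 44. Differences at single stages were not tested, and a mean over stages can hide them. At day 12 Ddah2 stood at 341.6 and 362.1 CPM in JB6 and at 540.7 and 534.1 CPM in BJ1. Ddr1 stood at 208.2 and 183.3 CPM in JB6 and at 296.3 and 293.0 CPM in BJ1 at day 12. In ESCs Ddr1 was higher in JB6, at 32.7 and 49.0 CPM against 26.0 and 26.1 CPM. Pbx2 was higher in JB6 at day 12, at 19.4 ± 1.11 CPM against 15.8 ± 0.0745 CPM (SD, n = 2 each). Without JB6 ESC replicate 1 the test called 345 genes and no member, and without JB6 ESC replicate 2 it called 145 genes and 2 members.

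In cortex, 2 members were lower in JB6, among 308 of 11158 genes that passed (2.76%, with 1.26% lower). Prrc2a, a large RNA-binding protein, averaged 68.2 ± 2.60 CPM in JB6 and 92.0 ± 7.69 CPM in BJ1 at E13.5, and 87.3 ± 4.91 CPM in JB6 and 120.3 ± 2.17 CPM in BJ1 at P0 (SD, n = 3, 3, 3 and 4). Its log2 fold was -0.44 ± 0.09 (SE, edgeR adjusted p = 0.0115). Bag6, a chaperone of membrane protein quality control, had a log2 fold of -0.50 ± 0.13 (edgeR adjusted p = 0.0376), and the call was lost in 11 of the 13 alternatives that each leave out a cortex library, all but E13.5 BJ1 replicate 1 and P0 BJ1 replicate 4. Without JB6 ESC replicate 2 the cortex test called 4 members and 739 genes, and without E13.5 BJ1 replicate 2 it called 1 member and 71 genes. The difference between the culture fold and the cortex fold passed for no member and for 29 genes (0.26%), with a smallest adjusted p of 0.436 and a median of 0.05 over members and 0.03 over all genes. Its 95% interval lay above -1 for 42 members and below 1 for 45. Without JB6 ESC replicate 2 this difference passed for 1 member and 221 genes, and without JB6 ESC replicate 1 for 395 genes.

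**Figure D5:**
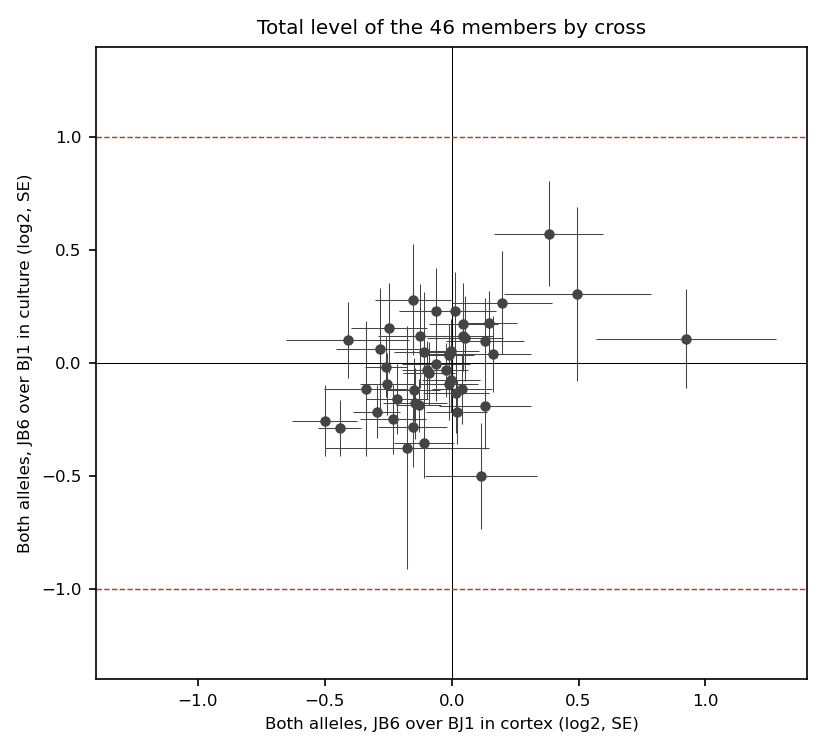
Log2 fold of the level summed over both alleles, JB6 over BJ1, in culture (y axis) against cortex (x axis) for the 46 members, with bars of 1 SE from edgeR and dashed lines at a fold of 2 in either direction. All culture folds lie between -0.50 and 0.57.

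BJ1 cortex gave an allelic comparison that the rule did not use. There, 45 members could be tested, all but Synj2, and 18 passed, 5 with a higher B6 allele and 13 with a higher JF1 allele. Over all genes 40.6% passed (25.2% with a higher B6 and 15.4% with a higher JF1 allele), so the members' count is near the background. Nothing is read from this count or from its split by allele. With DESeq2, and likewise with counts divided by 3, 12 members passed, 5 with a higher B6 allele and 7 with a higher JF1 allele. The members' log2 ratio of B6 over JF1 had a median of -0.09, against 0.04 over all genes. Wdr46 had the smallest adjusted p, with a log2 ratio of -0.66 ± 0.06 (SE, edgeR adjusted p = 3.48e-08) and a B6 share of 35.3% to 42.7% over the 7 libraries. Stk19, a nuclear protein once described as a kinase, stood at -0.59 ± 0.09 and a B6 share of 37.4% to 42.9% (edgeR adjusted p = 3.76e-05). The JF1 allele of both was higher in every BJ1 cortex library, where it is the paternal one.

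Pbx2 stood at -0.81 ± 0.26 (edgeR adjusted p = 0.0164), Prr18 at -0.59 ± 0.13 (edgeR adjusted p = 0.00127) and Nfkbil1, an inhibitor-like ankyrin protein, at -0.48 ± 0.17 (edgeR adjusted p = 0.0264). The calls of Pbx2 and Nfkbil1 were lost with DESeq2 and with counts divided by 3. The Pbx2 call was lost without E13.5 replicate 2, and the Nfkbil1 call without E13.5 replicate 1 or 3 or P0 replicate 4. On the B6 side, Gpank1 stood at 0.50 ± 0.14, Atp6v1g2, a subunit of the neuronal proton pump, at 0.39 ± 0.07, Brd2 at 0.36 ± 0.07, Tubb5 at 0.25 ± 0.02 and Ddr1 at 0.21 ± 0.06. The Tubb5 adjusted p was 9.40e-08 by edgeR, and its B6 share lay between 53.3% and 55.8% in all 7 libraries. With a scaling factor for each allele column, the median over all genes moved to -0.03 and the Ddr1 call was lost. The same scaling turned the split of all calls to 2021 with a higher B6 allele and 2263 with a higher JF1 allele, against 2614 and 1592.

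Between culture stages, the allele ratios come from the same JB6 libraries that chose the members, so they are given as a description. Tubb5 stood above 95% at days 12 and 21, as given above, and slightly lower in ESCs. Socs5 and Ttc7 had their highest JB6 culture shares in ESCs, and Ttc7 was 52.0% and 47.8% at day 12. Vars2, a mitochondrial valyl-tRNA synthetase, was 73.7% and 74.1% at day 12 and 83.5% and 79.5% in ESCs. In an edgeR fit over all genes at an adjusted p of 0.05, the JB6 allele ratio at day 12 relative to ESCs passed for these 4 members, against 7.27% of all genes, and for 2 of them with DESeq2 or with counts divided by 3. At day 21 relative to day 12 it passed for no member (43 of 10619 genes, 0.405%), with 3 at an unadjusted p of 0.05 and none by DESeq2. Both counts are near the background, and nothing is read from them.

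Stage changed the total level of most members, as it did for most genes. At day 12 relative to ESCs 34 members changed, 22 higher and 12 lower, against 71.1% of all genes (37.4% higher and 33.8% lower). The largest rises were in Adamts10, a secreted metalloprotease (log2 3.76 ± 0.31), Col11a2, a fibrillar collagen chain (2.98 ± 0.35), Ddah2 (2.89 ± 0.24), Ddr1 (2.80 ± 0.17) and Clic1 (2.53 ± 0.18). The largest falls were in Efhb (-4.35 ± 0.45), Zfp57 (-3.53 ± 0.27), the receptor Notch4 (-2.81 ± 0.21), Wdr46 (-2.17 ± 0.16) and Daxx (-1.62 ± 0.29). Efhb averaged 0.941 ± 0.491 CPM at day 12 and 11.4 ± 0.336 CPM in ESCs of JB6, and 0.360 ± 0.509 CPM at day 12 and 12.7 ± 0.709 CPM in ESCs of BJ1, and its log2 fold was -6.48 without BJ1 day 12 replicate 2. Zfp57 averaged 57.9 ± 17.8 CPM at day 12 and 502.9 ± 201 CPM in ESCs of JB6, and 46.3 ± 1.86 CPM at day 12 and 652.3 ± 120 CPM in ESCs of BJ1 (SD, n = 2 each). Its weak skew was present at both levels.

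At day 21 relative to day 12, 17 members changed, 6 higher and 11 lower, against 38.5% of all genes (19% higher and 19.5% lower), and the count lay between 9 and 22 when each library was left out. Atp6v1g2 rose by 3.30 ± 0.29 on the log2 scale, Prr18 by 2.05 ± 0.31, Col11a2 by 1.06 ± 0.27, Abhd16a by 0.52 ± 0.17 and Trim26 by 0.45 ± 0.15. Gtf2h4 fell by 1.27 ± 0.18 on the log2 scale, Rps18 fell by 1.19 ± 0.23, Gpank1 fell by 1.12 ± 0.20, Ddah2 fell by 1.08 ± 0.22 and Tubb5 fell by 0.75 ± 0.19. The calls of Abhd16a and Trim26 were each lost in 6 of the 12 alternatives that leave out a culture library, and that of Tubb5 without replicate 1 of day 21 in either cross. The count was 9 without BJ1 day 21 replicate 1, 10 without BJ1 day 21 replicate 2 or JB6 day 21 replicate 1, and 11 without BJ1 day 12 replicate 1. In cortex, 35 members changed at P0 relative to E13.5, 22 higher and 13 lower, against 74.1% of all genes (37.7% higher and 36.4% lower). Atp6v1g2 rose by 3.08 ± 0.12, Synj2 by 3.01 ± 0.32, Prr18 by 1.64 ± 0.17, Zfp57 by 1.46 ± 0.15 and 2310061I04Rik by 1.41 ± 0.10 on the log2 scale. Clic1 fell by 2.32 ± 0.11, Notch3 fell by 1.46 ± 0.11, Ddr1 fell by 1.23 ± 0.08, Ddah2 fell by 1.03 ± 0.14 and Cchcr1 fell by 1.00 ± 0.13. All folds named for stages passed edgeR's quasi-likelihood test at an adjusted p of 0.05.

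By role, the members were 1 of 9 genes with a ribosomal symbol (Rps18, in a list that also caught the kinase Rps6ka2), 2 of 6 of the cytoskeleton (Tubb5 and Flot1, a membrane scaffold), 1 of 4 chaperones and proteasome subunits (Tapbp), 8 of 18 of chromatin and transcription, and 1 of 6 of RNA processing (Ddx39b). The list of chaperones was matched by symbol and so did not count H2-Ke2, the prefoldin subunit. The rule took 46 of the 464 chromosome 17 genes that met the floor, and 39 of the 98 genes of the stretch. The lists were chosen with earlier results known, and nothing is read from these counts by role. Pou5f1, which encodes Oct4 and whose promoter drives the reporter, did not meet the floor, with 5 read bases in each JB6 ESC library and 1 in each BJ1 ESC library. Igf2r, an imprinted receptor gene of chromosome 17 that was not a member, was 35.7% and 44.5% maternal in JB6 ESCs and 75.2% and 73.7% in BJ1 ESCs. At days 12 and 21 it was 88.3% to 92.0% maternal in JB6 and 91.9% to 93.2% in BJ1, so the maternal allele of Igf2r was the higher one in both crosses there.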

How the data were processed

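Libraries were stranded polyadenylated RNA. Per the submitters' processing notes, the tools were Novoalign, HTSeq, edgeR and CASAVA 1.8.2, with the mm9 build. The authors' deposited notes add SAMtools 0.1.18. The deposited tables hold counts of read bases made by the authors, per gene and allele, on the sense strand, with no normalization. Per the authors' deposited notes, 6252 of 12508968 strain differences were removed by the filter on B6 and JF1 read shares in culture described for the B6 parent. Libraries of non-hybrid E14 cells were not analysed here.

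The members, lists and named genes were chosen with earlier results of these data known. The named genes are the 12 most-read members, the first and last along the chromosome, those at the limit and at the extremes of share, and up to 5 passing members per direction and comparison. Shares pooled read bases, with 95% Wilson intervals. Tests used edgeR 4.0.16 (quasi-likelihood, robust, a mean floor of 20 read bases per library, Benjamini-Hochberg over all genes tested) in R 4.3.3, with DESeq2 1.42.0 as an alternative. Allelic fits had a term per library, and total levels were sums of both alleles with TMM scaling and a term per stage and cross. Total-level folds of JB6 over BJ1 are means over the stages of culture or of cortex. Folds are log2 ± SE, and SEs are approximate. Fits were tested on simulated data with a fixed spread and large changes in well-read genes. That check does not cover small folds, low counts or the spread between these libraries. Nothing in the labels says whether replicates came from separate cultures or animals, so p-values measure only the spread between these samples. Python 3.11.15, pandas 2.3.3 and matplotlib 3.10.9 made the remaining tables and plots.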

Additional observations from a re-analysis of the deposited data

Results flagged for a closer look

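Trim26 had a total level of 49.0 CPM in 1 of the 4 P0 BJ1 cortex libraries, while the other 3 lay between 47.1 and 47.3 CPM. The gap to its nearest neighbour was 0.901 of the group's range, above Dixon's critical value of 0.829 for 4 samples. This was 1 of 24 values tested in this way, and chance flags about 1 group in 20. The difference is under 2 CPM, and the maternal share of Trim26 in the 4 libraries was 56.5%, 51.4%, 47.2% and 53.3%.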

How the results depend on the processing

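The rule gave 38 to 53 members with floors of 50 or 300, mean shares or each culture table alone, 26 with a limit of 70%, 24 with bands of 45% to 55%, and 44 to 49 when each library was left out. Of the JB6 allele changes at day 12 relative to ESCs, counts divided by 3 left 402 genes and 2 members and DESeq2 443 and 2, with 462 to 775 genes and 2 to 4 members over libraries left out. At day 21 relative to day 12 these settings gave 16 and 7 genes, no filter 69, and libraries left out 7 to 58. For total levels of JB6 against BJ1 in culture, DESeq2 gave 57 genes and no filter 11, with 4 to 345 genes and 0 to 2 members over libraries left out. In cortex DESeq2 gave 586 genes, with 71 to 739 genes and 1 to 4 members. For the culture minus cortex difference, counts divided by 3 gave 12 genes and DESeq2 173, with 11 to 395 genes and 0 to 1 member. For total levels at day 21 relative to day 12, libraries left out gave 9 to 22 members. The members' median log2 total-level difference lay on both sides of 0 over libraries left out, from -0.05 to 0.02 in culture and from -0.07 to 0.08 for culture minus cortex. No fold of a named gene changed sign, and the causes were not tested.

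Within a stage, deviations of same-numbered JB6 and BJ1 samples correlated between -0.158 and 0.125, so replicate numbers did not pair the crosses. Pairing of same-numbered samples across stages of a cross was not checked in this way. With the replicate block, cortex gave 162 genes and 1 member, Bag6 being lost, and culture gave 5 genes and no member, and no other count of members moved by over 1.5 times. Read bases are not independent molecules, depth limits members with under 1000 read bases, and shares per strain difference were not used here.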

Other observations

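Single JB6 culture libraries lay below 50% maternal in 8 of the 46 members. The lowest library was at 33.3% for Atp6v1g2, 37.5% for Prr18, 42.9% for Notch3, 44.9% for D17H6S53E, 47.3% for Socs5, 47.8% for Ttc7, 48.1% for Wtap and 49.6% for Synj2. At the other end, single BJ1 culture libraries reached 100% for Adamts10 and Col11a2 and 75% for Prr18. Daxx, with at most 77 read bases per library, reached 73.1% in a BJ1 culture library while all its JB6 culture libraries stood at 100%.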
